A study of Mus musculus with 6 samples.

Results

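The 35 genes described here encode lysosomal proteases, glycosidases and lipid hydrolases, lysosomal membrane proteins, subunits of the proton pump (V-ATPase), and the transcription factors *Tfeb* and *Tfe3*. They were chosen by symbol from a fixed list, and each was represented by its RefSeq transcript with the highest total count. All 35 were found among the 24562 gene symbols of the count table, and all 35 passed the filter on low counts. RNA was sequenced from unstimulated bone marrow-derived macrophages (BMDMs), primary macrophages grown from marrow in L929-conditioned medium, of C57BL/6J mice. The series' design text calls the mice female, while the study's reporting summary gives both sexes for its work in vitro. The 3 control libraries came from Cre-negative mice with the floxed allele (*Acly* fl/fl). The 3 AclyM-KO libraries came from *Acly* fl/fl mice that also carried *Lyz2*-Cre. *Acly* encodes ATP citrate lyase, which makes cytosolic acetyl-CoA from citrate, and *Lyz2*-Cre deletes the floxed exon in myeloid cells. Per the study's figure legends, replicates of this kind were technical ones made from a pool of 3 mice, so the p-values measure the spread between these libraries and not the variation between mice.

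Lysosomes are the acidic organelles in which macrophages break down ingested particles, dead cells and lipoproteins. The V-ATPase pumps protons into the lumen with a V1 sector that hydrolyses ATP and a V0 sector that spans the membrane, and the hydrolases inside work at the low pH it makes. TFEB and TFE3 are helix-loop-helix factors that bind an E-box-like element, called CLEAR, in front of many lysosomal genes.

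The authors deposited raw counts per transcript, and levels are given as CPM, counts scaled to a library of 1000000 after TMM normalization. Summed over all transcripts, the controls had between 19327459 and 23582992 counts, and there were 19797218, 44507233 and 19867137 counts in AclyM-KO replicates 1, 2 and 3. AclyM-KO replicate 2 was thus 2.18 times as deep as the mean of the other 5 libraries. It also stood apart in its values, with a limma-voom weight of 0.186 where the other 5 lay between 1.02 and 1.55. Its label carries the library number 20, where the other AclyM-KO labels carry 60 and 62 and the controls 45, 46 and 47, and the labels do not say what the number stands for. *Acly* fell in AclyM-KO macrophages, from 229.7 ± 8.18 CPM to 96.8 ± 3.06 CPM (SD, n = 3), a log2 fold change of -1.25 (SE 0.066, adjusted p = 5.58e-07) with edgeR. The macrophage markers *Adgre1*, *Cd68* and *Itgam* had log2 fold changes between 0.0011 and 0.075 and did not pass the test. *Fcgr1* had -0.18 and did not pass either, but had -0.30 (adjusted p = 0.00202, edgeR) without AclyM-KO replicate 2. Of the 7 macrophage markers, 3 were lower in AclyM-KO, and the summed level of the 7 was between 21471 and 22462 CPM in the controls and between 12438 and 15064 CPM in AclyM-KO. *Lyz2*, the most abundant of them and the locus that carries Cre, had a log2 fold change of -1.05 (SE 0.086, adjusted p = 2.21e-05) and *Mertk* one of -0.67 (SE 0.10, adjusted p = 0.00202) with edgeR. *Csf1r* had -0.48 (SE 0.13, adjusted p = 0.0391), with an adjusted p of 0.137 without control replicate 1, 0.0906 without control replicate 2, 0.127 without control replicate 3 and 0.0769 without AclyM-KO replicate 3. The part of these markers in the results on lysosomal genes was not tested. Summed markers of dendritic cells, B cells, T cells, stroma, erythroid cells and mast cells stayed at or below 4.48 CPM in every library, and those of neutrophils lay between 23.6 and 25.7 CPM.

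The lysosomal genes were abundant. Together they held 10.2%, 9.83% and 10.02% of all counts in control replicates 1, 2 and 3 and 10.1%, 8.90% and 9.98% in AclyM-KO replicates 1, 2 and 3. *Ctsb*, *Ctsd* and *Psap* alone took between 6.78% and 7.05% in the controls and between 6.09% and 7.10% in AclyM-KO macrophages. The share was thus alike in 5 libraries and lowest in AclyM-KO replicate 2. Levels were compared between genes per transcript length, as CPM per kilobase of transcript (RPKM). On that scale the control means ran from 3.49 RPKM for *Ctsk* to 10021 RPKM for *Ctsd*, with a median of 244.6 RPKM. The 7 most abundant were *Ctsd*, *Psap*, *Ctsb*, *Ctss*, *Lamp1*, *Grn* and *Lgmn*, the last at 1154 RPKM. The control libraries agreed closely, with a median coefficient of variation of 2.36% over the 35 genes, against 6.33% over all genes tested. In AclyM-KO the medians were 8.46% and 10.4%.

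**Figure D1:**
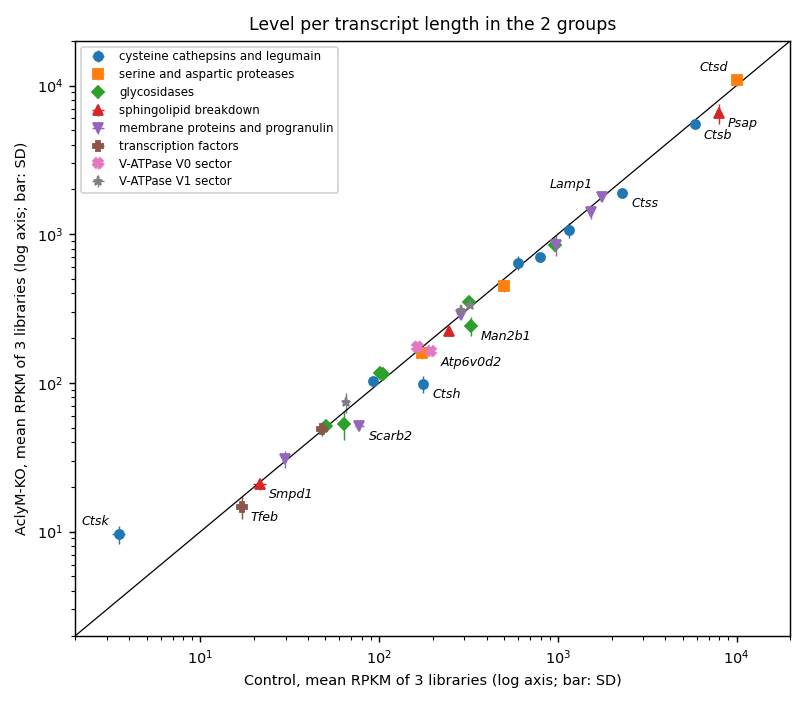
Mean RPKM of the 35 lysosomal genes in control (x) and AclyM-KO (y) macrophages on log axes, with SD over 3 libraries as bars and the line of equal levels. Most genes lie on the line from 17.0 RPKM (*Tfeb*, control) up to 10021 RPKM (*Ctsd*, control), while *Ctsk* lies above it and *Ctsh*, *Scarb2* and *Man2b1* lie below it.

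Of the 35 genes, 6 differed between AclyM-KO and control macrophages at an adjusted p of at most 0.05 (edgeR quasi-likelihood test, Benjamini-Hochberg over 11470 genes). *Ctsk* rose, and *Ctsh*, *Scarb2*, *Man2b1*, *Ctss* and *Atp6v0d2* fell. These 6 are 17.1% of the list, where 12.3% of all genes tested passed the same threshold. By direction, 1 gene was higher where 6.7% of all genes were, and 5 were lower where 5.65% of all genes were. In bulk RNA, fewer cells of a type and less RNA per cell cannot be told apart. The median log2 fold change of the 35 genes was -0.041, beside 0.00026 for all genes tested. For 17 of the 35 genes (48.6%), every AclyM-KO library lay on the same side of every control, 6 higher and 11 lower in AclyM-KO, where 32.8% of all genes tested had no overlap. For the 29 genes that did not pass, log2 fold changes lay between -0.28 (*Psap*) and 0.21 (*Gla*), and the 95% interval lay within 0.5 of 0 on the log2 scale for 27 of them.

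AclyM-KO replicate 2 bore on how many genes passed. It was the lowest AclyM-KO library for 23 of the 35 genes, against 38.2% of all genes tested, and the highest for 8, against 41.7%. Without it, 14 of the 35 genes (40.0%) passed the threshold with edgeR, where 18.5% of 11554 genes tested did. All 6 calls were kept. The 8 added were *Atp6v0d1*, *Ctsc*, *Ctsd*, *Gla*, *Glb1* and *Gusb*, higher in AclyM-KO, and *Asah1* and *Psap*, lower. Their log2 fold changes in that fit were small, from -0.16 (*Psap*) to 0.19 (*Glb1*). Among genes that passed in neither fit, leaving it out brought *Ctsl* to 0.0051, *Ctsz* to -0.11, *Lgmn* to -0.023, *Ctsa* to -0.086, *Tpp1* to -0.067, *Hexa* to -0.12 and *Grn* to -0.020, each nearer to 0. Others of these genes moved away from 0. *Mcoln1* went from 0.046 to 0.16, *Neu1* from 0.025 to 0.10 and *Tfe3* from 0.025 to 0.10. *Lamp1* went from 0.011 to 0.048, *Lamp2* from -0.0062 to -0.056 and *Atp6v0c* from 0.083 to 0.11. The rest came nearer to 0.

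**Figure D2:**
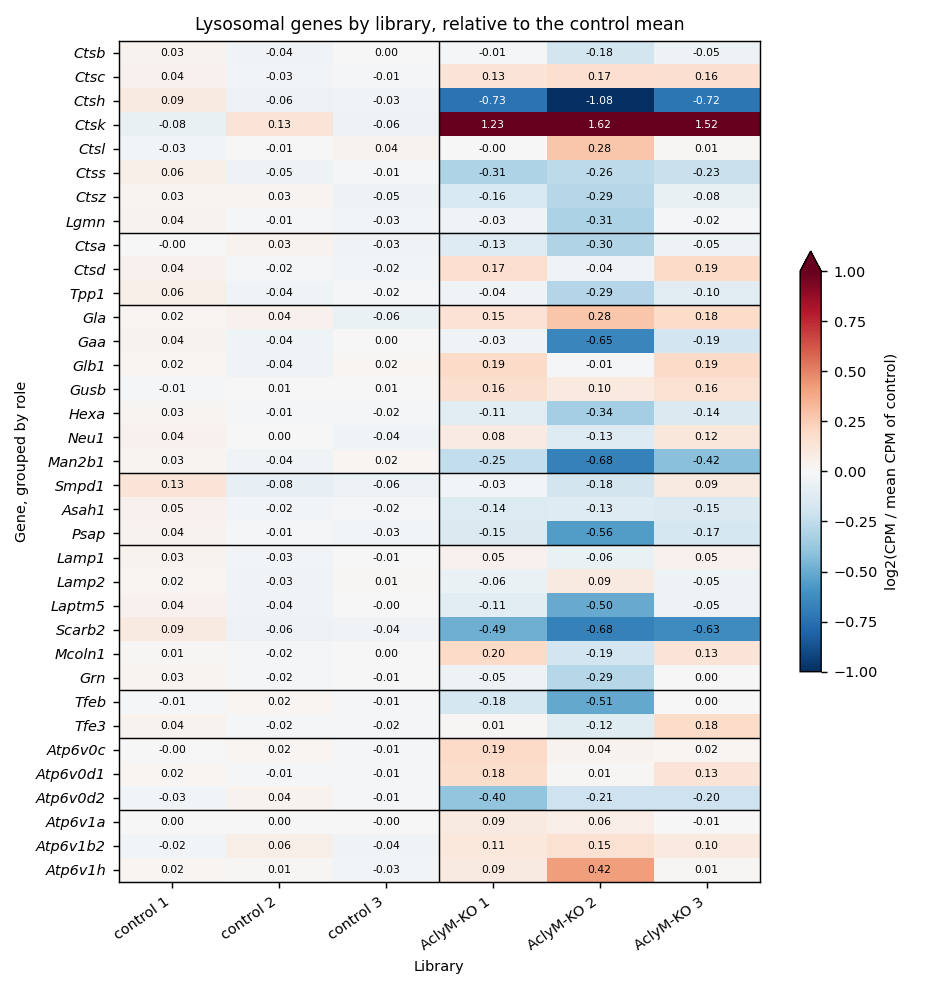
Log2 ratio of the CPM in each library (columns) to the control mean, for the 35 genes in rows grouped by role, with red above and blue below the control mean. *Ctsk* reaches 1.62 in AclyM-KO replicate 2, *Ctsh* and *Scarb2* are below the control mean in all 3 AclyM-KO libraries, and the column of AclyM-KO replicate 2 holds the lowest AclyM-KO value for 23 genes.

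**Figure D3:**
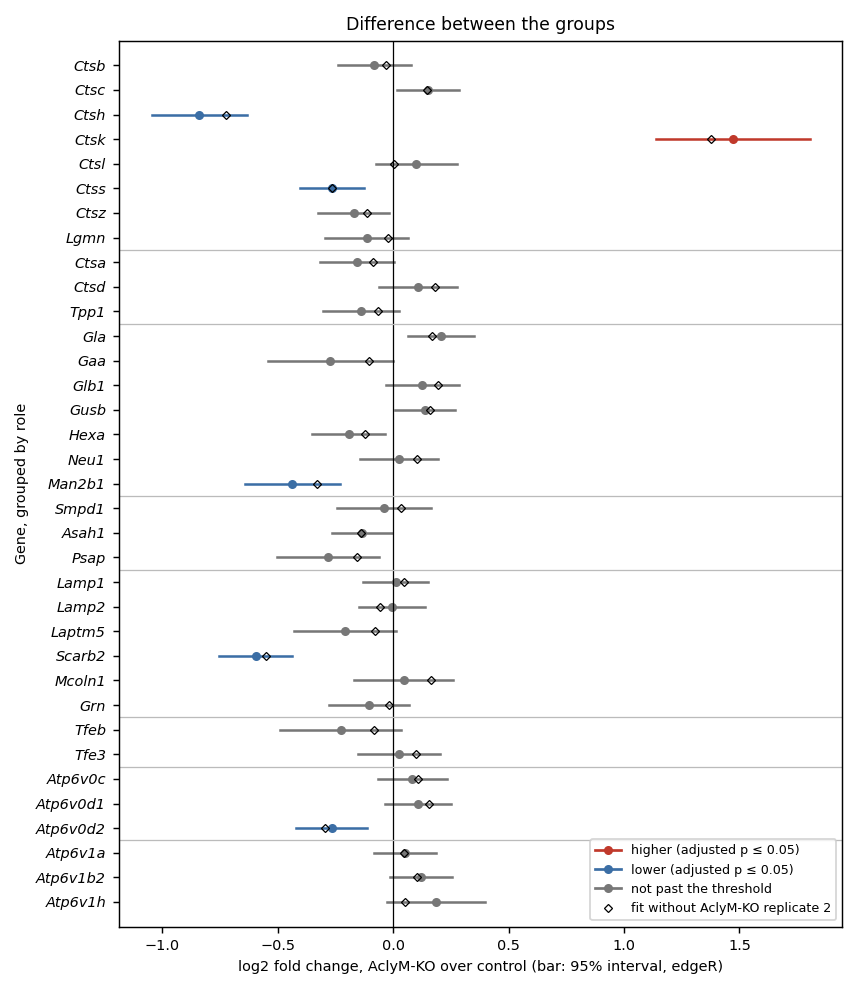
Log2 fold change (AclyM-KO over control) of each gene with its 95% interval from edgeR, in red or blue where the adjusted p was at most 0.05, and the estimate without AclyM-KO replicate 2 as an open diamond. The 29 grey genes lie between -0.28 and 0.21, and the diamonds of *Ctsk*, *Ctsh* and *Scarb2* stay apart from 0.

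Of the 8 cysteine protease genes, 3 passed the threshold, where 12.3% of all genes tested did. *Ctsk* encodes cathepsin K, a collagenase best known from bone-resorbing osteoclasts, and lies at chr3:95499210-95509387 (coordinates of genes from RefSeq, mm10). It was counted at 5.0, 5.75 and 5.05 CPM in control replicates 1, 2 and 3 and 12.4, 16.2 and 15.1 CPM in AclyM-KO replicates 1, 2 and 3. Every AclyM-KO library lay far above every control library, without overlap. The log2 fold change was 1.47 (SE 0.15, adjusted p = 0.000138) with edgeR, a 2.77-fold higher level, and it passed the threshold in all 6 fits that each left out 1 library. *Ctsk* stayed the rarest of the 35 genes per length, at 3.49 ± 0.278 RPKM in control and 9.63 ± 1.31 RPKM in AclyM-KO (SD, n = 3).

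Markers of osteoclasts, which also come from marrow precursors, moved in part with *Ctsk*. Of the 7 osteoclast markers, *Itgb3* had a log2 fold change of 0.78 (SE 0.090, adjusted p = 0.000309) and *Mmp9* one of 1.17 (SE 0.21, adjusted p = 0.00439) with edgeR, and *Dcstamp* and *Nfatc1* had 0.54 and -0.37 and did not pass. Groups did not overlap for any of these 4, and *Nfatc1* was the 1 that lay lower in AclyM-KO. Without AclyM-KO replicate 2, *Nfatc1* passed as lower and 2 markers as higher with edgeR, where 18.5% of all genes tested passed. The defining receptor gene *Calcr* was at 0 counts in every library, and *Ocstamp* and *Oscar* were at no more than 3 counts. The summed level of all 7 was between 151 and 169.9 CPM in the controls and between 197 and 210.0 CPM in AclyM-KO. *Atp6v0d2*, a proton pump gene that osteoclasts use strongly, was lower in AclyM-KO, as described with the V-ATPase. The part of such cells in the *Ctsk* result was not tested.

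*Ctss*, which encodes cathepsin S, a protease of antigen processing, is the neighbour of *Ctsk* on chromosome 3, at chr3:95526786-95556405, with 17398 bases between the genes. The neighbours moved in opposite directions. *Ctss* was at 3219.5, 2992 and 3073 CPM in control replicates 1, 2 and 3 and 2492, 2585 and 2648 CPM in AclyM-KO replicates 1, 2 and 3. All 3 AclyM-KO libraries lay below all 3 controls. The log2 fold change was -0.27 (SE 0.064, adjusted p = 0.0195) with edgeR, and the adjusted p was 0.121 without control replicate 1, 0.0626 without control replicate 2 and 0.0982 without control replicate 3.

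*Ctsh* encodes cathepsin H, an aminopeptidase, and lies at chr9:90054267-90076095. It was at 303, 273 and 278 CPM in control replicates 1, 2 and 3 and 171, 135 and 173 CPM in AclyM-KO replicates 1, 2 and 3. The groups were far apart, and AclyM-KO replicate 2 was the lowest. *Ctsh* had a log2 fold change of -0.84 (SE 0.095, adjusted p = 0.000262) with edgeR, a level of 0.559 times the control, and the call held in all 6 fits that each left out 1 library.

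The other 5 genes of this family did not pass the threshold. *Ctsb*, the broadly active cathepsin B and one of the most abundant messages here, was at 28181, 26885 and 27659 CPM in control replicates 1, 2 and 3 and 27313, 24275 and 26605 CPM in AclyM-KO replicates 1, 2 and 3. Its groups overlapped, with a log2 fold change of -0.081 (95% interval -0.24 to 0.076, here and elsewhere not adjusted for the number of genes). *Ctsl*, encoding the endopeptidase cathepsin L, was at 1159, 1178 and 1214 CPM in control replicates 1, 2 and 3 and 1182, 1434 and 1190.1 CPM in AclyM-KO replicates 1, 2 and 3. AclyM-KO replicate 2 stood above the rest, which were alike, and the log2 fold change was 0.10 (-0.075 to 0.28). *Ctsc*, whose product activates granule serine proteases, had a log2 fold change of 0.15, and its 3 AclyM-KO libraries, between 252 and 258 CPM, lay above the controls, between 225 and 237 CPM. *Ctsz*, a carboxypeptidase, had one of -0.17 without overlap. *Lgmn*, the asparaginyl endopeptidase legumain that processes other cathepsins, had one of -0.12 with overlap.

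Among *Ctsl*, *Ctsk* and *Ctss*, which are close relatives, the summed RPKM was made up mostly by *Ctss*. The share of *Ctss* was 80.1%, 78.6% and 78.6% in the controls and 75.2%, 72.1% and 76.1% in AclyM-KO. The share of *Ctsl* was 20.8% ± 0.86 in control and 25.2% ± 2.07 in AclyM-KO (SD, n = 3). *Ctsk* took 0.121% ± 0.0128 and 0.376% ± 0.0372, so that it stayed a trace of the 3 in both groups. The groups did not overlap for any of the 3 shares, and an exact two-sided permutation test gave p = 0.1, the smallest that 3 libraries against 3 allow.

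**Figure D4:**
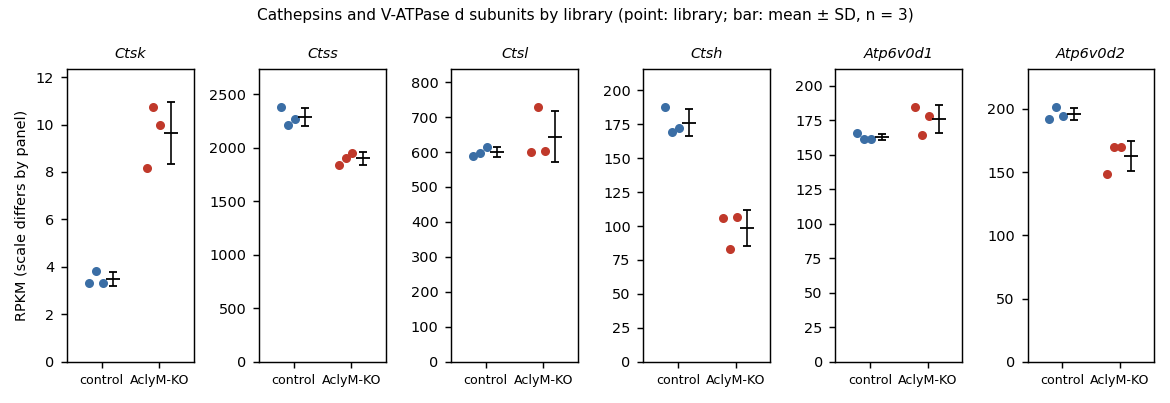
RPKM of the cathepsin genes *Ctsk*, *Ctss*, *Ctsl* and *Ctsh* and of the V-ATPase d subunit genes *Atp6v0d1* and *Atp6v0d2* in each library (points) with mean ± SD over 3 libraries (bars), each panel on its own scale from 0. *Ctsk* is higher and *Ctss*, *Ctsh* and *Atp6v0d2* are lower in all 3 AclyM-KO libraries than in any control, while *Ctsl* and *Atp6v0d1* overlap.

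Genes of cathepsin inhibitors moved in both directions. Of 14 listed, 5 were expressed enough to be tested, 2 rose and 2 fell, beside 6.7% and 5.65% of all genes tested. *Cst7*, encoding the lysosomal inhibitor cystatin F, was at 4.46, 4.19 and 5.41 CPM in control replicates 1, 2 and 3 and 9.05, 12.1 and 12.7 CPM in AclyM-KO replicates 1, 2 and 3. It rose in all 3 AclyM-KO libraries, with a log2 fold change of 1.28 (SE 0.18, adjusted p = 0.00118) with edgeR. *Cstb*, encoding the cytosolic inhibitor cystatin B, had a log2 fold change of 0.40 (SE 0.089, adjusted p = 0.0132), and its adjusted p was 0.0689 without control replicate 1, 0.0511 without control replicate 2 and 0.0672 without control replicate 3. *Cst3*, the secreted cystatin C, had one of -0.30 (SE 0.064, adjusted p = 0.011), with 0.0744 without control replicate 1 and 0.0733 without control replicate 3. *Serpinb6a*, a cytosolic serpin, had one of -0.21 (SE 0.060, adjusted p = 0.0402), with 0.183 without control replicate 1, 0.119 without control replicate 2, 0.156 without control replicate 3, 0.0509 without AclyM-KO replicate 1 and 0.0714 without AclyM-KO replicate 3.

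Neither the aspartic protease nor the serine proteases passed the threshold. *Ctsd*, encoding cathepsin D, had the highest level per length, at 10021 ± 260.4 RPKM in control and 10810.0 ± 913 RPKM in AclyM-KO (SD, n = 3). Its libraries were at 21953, 21025 and 20965 CPM in control replicates 1, 2 and 3 and 23931, 20758 and 24287 CPM in AclyM-KO replicates 1, 2 and 3. AclyM-KO replicates 1 and 3 lay above all controls and replicate 2 below them, and the log2 fold change was 0.11 (-0.060 to 0.28). Without that library it was 0.18 (adjusted p = 0.00505, edgeR). *Ctsa*, the protective protein that stabilises β-galactosidase and neuraminidase, had a log2 fold change of -0.16 without overlap. *Tpp1*, a tripeptidyl peptidase, had one of -0.14 with overlap.

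Of the 7 glycosidase genes, 1 passed. *Man2b1*, the lysosomal α-mannosidase, lies at chr8:85082730-85098739 and was at 1277, 1215 and 1267 CPM in control replicates 1, 2 and 3 and 1055, 784 and 936 CPM in AclyM-KO replicates 1, 2 and 3. The AclyM-KO libraries differed among themselves but all lay below the controls. *Man2b1* had a log2 fold change of -0.44 (SE 0.094, adjusted p = 0.0112) with edgeR, a level of 0.738 times the control, and the adjusted p was 0.0577 without control replicate 1 and 0.0618 without control replicate 3.

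The other 6 glycosidase genes had log2 fold changes on both sides of 0. *Gla*, the α-galactosidase that cleaves globosides, came nearest to the threshold, at 327, 331 and 308 CPM in control replicates 1, 2 and 3 and 357, 391 and 366 CPM in AclyM-KO replicates 1, 2 and 3. All 3 AclyM-KO libraries lay above the controls, and the log2 fold change was 0.21 (SE 0.066, adjusted p = 0.0629) with edgeR. *Gusb*, encoding β-glucuronidase, had 0.14 without overlap, and *Glb1*, encoding β-galactosidase, had 0.13 with overlap. Without AclyM-KO replicate 2 the adjusted p of *Gla*, *Gusb* and *Glb1* was 0.0233, 0.0161 and 0.00944 with edgeR. *Gaa*, the glycogen-degrading α-glucosidase, was at 236, 223 and 230.4 CPM in control replicates 1, 2 and 3 and 225, 146 and 202 CPM in AclyM-KO replicates 1, 2 and 3. Its low value in AclyM-KO replicate 2 lay apart from replicates 1 and 3, and the log2 fold change was -0.27 (-0.54 to -0.0022), with an adjusted p of 0.0437 without AclyM-KO replicate 1. Without replicate 2 it was -0.11 (adjusted p = 0.205, edgeR). *Hexa*, the α subunit of β-hexosaminidase, had -0.19 without overlap, and *Neu1*, a sialidase, had 0.025 with overlap.

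None of the 3 genes of sphingolipid breakdown passed. *Psap*, whose product is cut into the saposins that present glycolipids to their hydrolases, was at 21714, 20990.0 and 20755 CPM in control replicates 1, 2 and 3 and 19100.0, 14329 and 18766 CPM in AclyM-KO replicates 1, 2 and 3. The groups did not overlap, but AclyM-KO replicate 2 lay far below the other AclyM-KO libraries. Its log2 fold change was -0.28 (SE 0.10, adjusted p = 0.0919) with edgeR. Without AclyM-KO replicate 1 the adjusted p was 0.0488, and without replicate 2 the log2 fold change shrank to -0.16 with an adjusted p of 0.0125. *Asah1*, encoding acid ceramidase, was at 700.0, 667 and 668 CPM in control replicates 1, 2 and 3 and 618, 621 and 613 CPM in AclyM-KO replicates 1, 2 and 3. Its AclyM-KO libraries were nearly equal and lay below the controls, and the log2 fold change was -0.14 (-0.27 to -0.0061). *Smpd1*, encoding acid sphingomyelinase, had -0.041 with overlap.

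Beyond the list, 46 genes of other lysosomal hydrolases and their activators were tested, of which 2 rose and 8 fell, beside 6.7% and 5.65% of all genes tested. *Ctsf*, encoding cathepsin F, was at 27.6, 22.9 and 26.4 CPM in control replicates 1, 2 and 3 and 15.2, 9.22 and 12.9 CPM in AclyM-KO replicates 1, 2 and 3. It fell in all 3 AclyM-KO libraries, with a log2 fold change of -1.08 (SE 0.17, adjusted p = 0.00197) with edgeR, and the call held whichever library was left out. *Hgsnat*, the acetyltransferase that uses acetyl-CoA to acetylate heparan sulfate in the lysosome, was at 58.0, 58.8 and 53.7 CPM in control replicates 1, 2 and 3 and 72.7, 74.7 and 81.4 CPM in AclyM-KO replicates 1, 2 and 3. It rose, with a log2 fold change of 0.42 (SE 0.077, adjusted p = 0.00498) with edgeR, and that call also held in all 6 fits. *Pla2g15*, the lysosomal phospholipase A2, had a log2 fold change of -0.43 (SE 0.10, adjusted p = 0.0164), with 0.0747 without control replicate 1, 0.0642 without control replicate 2 and 0.0649 without control replicate 3. *Prcp*, a carboxypeptidase, had one of -0.41 (SE 0.091, adjusted p = 0.0138), with 0.0627 without control replicate 1 and 0.0744 without control replicate 3. *Dpp7*, a dipeptidyl peptidase, had one of 0.29 (SE 0.075, adjusted p = 0.029), with 0.0946 without control replicate 1, 0.126 without control replicate 2, 0.126 without control replicate 3, 0.0744 without AclyM-KO replicate 1 and 0.0881 without AclyM-KO replicate 3.

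Among the 6 genes of the lysosomal membrane and of progranulin, *Scarb2* passed. It encodes LIMP-2, the receptor that carries glucocerebrosidase to the lysosome, and lies at chr5:92441311-92505657. *Scarb2* was at 388, 349.8 and 356 CPM in control replicates 1, 2 and 3 and 259.8, 228 and 236 CPM in AclyM-KO replicates 1, 2 and 3. All 3 AclyM-KO libraries lay below all 3 controls. Its log2 fold change was -0.60 (SE 0.073, adjusted p = 0.000483) with edgeR, a level of 0.661 times the control, and it passed in all 6 fits that each left out 1 library.

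The structural membrane glycoproteins had intervals around 0. *Lamp1* was at 4009.9, 3843 and 3902 CPM in control replicates 1, 2 and 3 and 4045, 3750.1 and 4047 CPM in AclyM-KO replicates 1, 2 and 3, with a log2 fold change of 0.011 (-0.13 to 0.15). *Lamp2*, which also serves chaperone-mediated autophagy, had -0.0062 (-0.15 to 0.14). The groups overlapped for both genes. *Laptm5*, a membrane protein of blood cell lysosomes, was at 2617, 2484 and 2539.6 CPM in control replicates 1, 2 and 3 and 2357, 1799 and 2458 CPM in AclyM-KO replicates 1, 2 and 3. Its groups did not overlap, AclyM-KO replicate 2 lay far below the rest, and the log2 fold change was -0.21 with that library and -0.079 without it. *Mcoln1*, the calcium channel of the lysosome, had 0.046, and *Grn*, encoding progranulin, had -0.11, both with overlap.

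Of 31 other genes of lysosomal membrane proteins and transporters, 1 rose and 3 fell, a share near the 12.3% of all genes tested that passed. *Slc38a9*, an amino acid sensor for mTORC1, had a log2 fold change of -0.41 (SE 0.086, adjusted p = 0.00954) with edgeR, and its adjusted p was 0.0682 without control replicate 1 and 0.0551 without control replicate 2. *Slc15a3*, a peptide and histidine transporter, had -0.23 (SE 0.065, adjusted p = 0.038), with 0.121 without control replicate 1, 0.183 without control replicate 2, 0.103 without control replicate 3, 0.0761 without AclyM-KO replicate 1 and 0.0782 without AclyM-KO replicate 3. *Slc37a2*, a sugar phosphate transporter family member, had -0.21 (SE 0.063, adjusted p = 0.0492), with 0.15 without control replicate 1, 0.194 without control replicate 2, 0.161 without control replicate 3 and 0.12 without AclyM-KO replicate 3. *Cd164*, a sialomucin, had 0.22 (SE 0.065, adjusted p = 0.047), with 0.145 without control replicate 1, 0.196 without control replicate 2, 0.152 without control replicate 3 and 0.0693 without AclyM-KO replicate 3. Groups did not overlap for any of the 4.

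In the sorting machinery that brings hydrolases to the lysosome, 16 genes were tested, 1 rose and 2 fell, where 12.3% of all genes tested passed. *Sorl1*, a sorting receptor, was at 50.9, 47.5 and 52.0 CPM in control replicates 1, 2 and 3 and 36.8, 26.0 and 28.5 CPM in AclyM-KO replicates 1, 2 and 3. It fell with a log2 fold change of -0.73 (SE 0.12, adjusted p = 0.00284) with edgeR, in all 6 fits that each left out 1 library. *Ap1b1*, a subunit of the AP-1 adaptor, had -0.38 (SE 0.10, adjusted p = 0.0343), with 0.132 without control replicate 1, 0.0811 without control replicate 2, 0.122 without control replicate 3 and 0.0577 without AclyM-KO replicate 3. *Vps29*, a retromer subunit, had 0.26 (SE 0.074, adjusted p = 0.0387), with 0.155 without control replicate 1, 0.13 without control replicate 2 and 0.129 without control replicate 3.

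Across these other lists together, 131 genes were tested, 7 rose and 17 fell, which is 18.3% beside 12.3% of all genes. By list, 10 of 46 other hydrolase genes passed, 4 of 31 membrane genes, 1 of 13 V-ATPase genes, 3 of 16 sorting genes, 4 of 5 inhibitor genes and 2 of 20 genes of the TFE family and its control.

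The V-ATPase members of the V0 sector split. *Atp6v0d2*, an isoform of the d subunit that is enriched in osteoclasts and macrophages, lies at chr4:19876838-19922566 and was at 489, 511 and 493 CPM in control replicates 1, 2 and 3 and 378, 431 and 432 CPM in AclyM-KO replicates 1, 2 and 3. All 3 AclyM-KO libraries lay below the controls, replicate 1 the furthest. The log2 fold change was -0.27 (SE 0.070, adjusted p = 0.0291) with edgeR, and the adjusted p was 0.0966 without control replicate 1, 0.131 without control replicate 2, 0.107 without control replicate 3 and 0.0613 without AclyM-KO replicate 1. With library totals in place of TMM scaling it was 0.0533.

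*Atp6v0d1*, the ubiquitous isoform of the same subunit, was at 269.6, 263 and 263 CPM in control replicates 1, 2 and 3 and 300.1, 268 and 290.3 CPM in AclyM-KO replicates 1, 2 and 3. Its groups overlapped by a single library, and the log2 fold change was 0.11 (-0.036 to 0.25). Per length, *Atp6v0d2* made up 53.8%, 55.5% and 54.6% of the 2 messages in the controls and 44.7%, 50.8% and 48.9% in AclyM-KO. The means were 54.6% ± 0.857 and 48.1% ± 3.12 (SD, n = 3), and the groups did not overlap (exact two-sided permutation test, p = 0.1, the smallest possible). *Atp6v0c*, the proteolipid of the rotating ring, had a log2 fold change of 0.083 without overlap.

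The V1 genes did not pass. *Atp6v1a*, the catalytic A subunit, was at 1366, 1368 and 1362 CPM in control replicates 1, 2 and 3 and 1454, 1428 and 1360.1 CPM in AclyM-KO replicates 1, 2 and 3. The controls were within a few CPM of each other, and the log2 fold change was 0.050 (-0.082 to 0.18). *Atp6v1b2*, the B subunit, had 0.12 without overlap, and *Atp6v1h*, a regulatory subunit, had 0.19 with overlap and its highest value, 179 CPM, in AclyM-KO replicate 2, without which it was 0.051.

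Of 25 V-ATPase genes found in the table, members included, 19 were tested. *Atp6v0a1*, an isoform of the large membrane subunit, was at 726, 848 and 794 CPM in control replicates 1, 2 and 3 and 1198, 1316 and 1278 CPM in AclyM-KO replicates 1, 2 and 3. Every AclyM-KO library was above every control, and the log2 fold change was 0.68 (SE 0.074, adjusted p = 0.000198) with edgeR, a 1.60-fold higher level, which passed whichever library was left out. It was the single V-ATPase gene that rose, and *Atp6v0d2* the single one that fell. The log2 fold change was above 0 for 16 of the 19, with a median of 0.099 beside 0.00026 for all genes tested. Without AclyM-KO replicate 2, 5 passed as higher, *Atp6v0a1*, *Atp6v0a2*, *Atp6v0b*, *Atp6v1c1* and *Atp6v0d1*, where 1105 of 11554 genes tested did. *Atp6v0d2* passed as lower in that fit (adjusted p = 0.000975, edgeR), where 1031 of all genes did. Of these, *Atp6v0a2*, *Atp6v0b* and *Atp6v1c1* were chosen for naming after their values were seen.

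*Tfeb* and *Tfe3* did not pass the threshold. *Tfeb* was at 39.6, 40.5 and 39.7 CPM in control replicates 1, 2 and 3 and 35.3, 28.0 and 40.0 CPM in AclyM-KO replicates 1, 2 and 3. AclyM-KO replicate 2 was the lowest and replicate 3 lay among the controls, with a log2 fold change of -0.23 (-0.49 to 0.034), and -0.083 without AclyM-KO replicate 2. *Tfe3* had 0.025 (-0.15 to 0.20). Of their summed RPKM, *Tfeb* took 25.5%, 26.7% and 26.4% in the controls and 23.7%, 21.3% and 23.9% in AclyM-KO, without overlap (exact two-sided permutation test, p = 0.1, the smallest possible). Of 20 further genes of this family and its control, 2 fell and none rose, which is no more than the 12.3% of all genes tested that passed. *Rragd*, a Rag GTPase that recruits TFE factors to the lysosome, was at 167, 164 and 158 CPM in control replicates 1, 2 and 3 and 132, 114 and 119.6 CPM in AclyM-KO replicates 1, 2 and 3, with a log2 fold change of -0.42 (SE 0.072, adjusted p = 0.00351) with edgeR in a call that held in all 6 fits. *Fnip2*, a folliculin partner, had -0.23 (SE 0.066, adjusted p = 0.0391), with 0.0954 without control replicate 1, 0.174 without control replicate 2, 0.157 without control replicate 3 and 0.104 without AclyM-KO replicate 3.

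The promoters of the 35 genes were searched for the letters of the CLEAR element, since the list holds its binding factors. RefSeq promoters, from 250 bases before to 50 after the start of transcription (GRCm38.p6, the mm10 assembly), were given for 29 of the 35. The 8-base palindrome TCACGTGA was in 6 of the 29 (20.7%), beside 304 of 27025 genes with a promoter (1.12%) and 2.34% of the tested genes. The 7 bases TCACGTG, on either strand, which the palindrome contains, were in 10 (34.5%) beside 4.29% of genes with a promoter and 7.27% of the tested genes. The inner CACGTG was in 11 (37.9%) beside 8.09% and 12.1%. The palindrome is printed here in capitals with its surroundings, cut at the start of transcription, for the 4 genes whose promoter entry starts where the gene starts: an aspartic protease, a glycosidase, a channel and a pump subunit. In the other 2 genes, *Ctsa* and *Atp6v1a*, the promoter entry that holds it starts inside the span of the gene.
Ctsd: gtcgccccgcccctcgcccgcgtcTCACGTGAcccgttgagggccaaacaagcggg
Gla: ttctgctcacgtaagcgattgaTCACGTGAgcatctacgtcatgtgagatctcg
Mcoln1: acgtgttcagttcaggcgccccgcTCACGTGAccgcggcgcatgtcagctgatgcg
Atp6v0d1: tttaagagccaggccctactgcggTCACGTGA

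These windows are 5′ to 3′ on the strand of the gene. That of *Ctsd* is chr7:142387895-142387950 (minus strand), with the palindrome starting at base -99 relative to the start of transcription. That of *Gla* is chrX:134601202-134601255 (minus strand), from base -228, and a second palindrome follows at base -195. The *Mcoln1* window is chr8:3500449-3500504 (plus strand), from base -46. In *Atp6v0d1*, at chr8:105566061-105566092 (minus strand), the palindrome straddles the start, from base -4. *Ctsa*, the single gene of the 6 with a log2 fold change below 0, holds it at 2 places.

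Of the 11 genes with the CACGTG core, 0 passed the threshold, and of the 18 with a promoter entry and no core, 4 did (*Ctsk*, *Ctss*, *Man2b1* and *Scarb2*). Over all tested genes with a promoter, 9.42% of those with the core and 12.3% of those without it passed. Those shares are from the fit of all 6 libraries. Without AclyM-KO replicate 2, 4 of the 11 passed with edgeR, *Ctsd* (adjusted p = 0.00505), *Gla* (0.0233), *Glb1* (0.00944) and *Atp6v0d1* (0.0307), and 7 of the 18 did. In that fit 18.5% of all 11554 genes tested passed. *Ctsh* and *Atp6v0d2* had no promoter entry. The 6 genes with the palindrome had log2 fold changes between -0.16 (*Ctsa*) and 0.21 (*Gla*), with a median of 0.079 and 5 of 6 above 0. The 23 without it had a median of -0.11 and 9 above 0. Over all tested genes with a promoter, the medians were 0.015 with and -0.0024 without the palindrome. A match of letters is a description and not a site of binding.

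**Figure D5:**
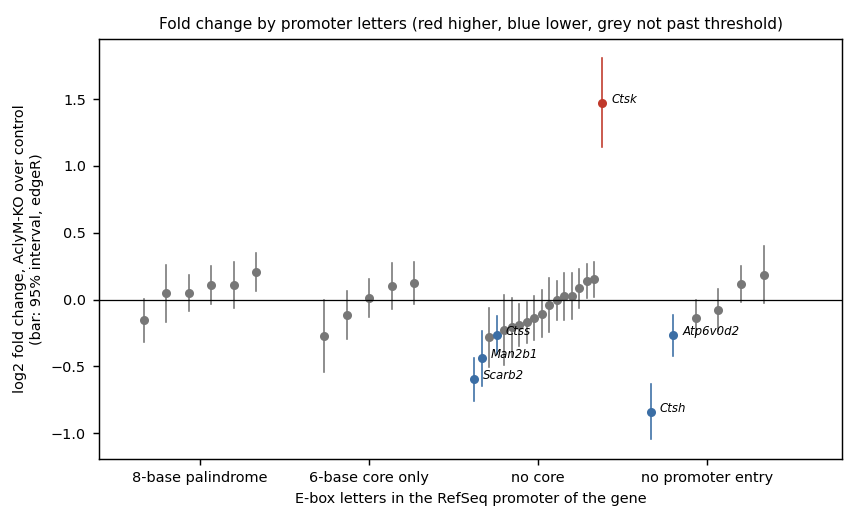
Log2 fold change (AclyM-KO over control, with 95% interval from edgeR) of the 35 genes, split by whether the RefSeq promoter holds the 8-base palindrome, the 6-base core without the palindrome, or no core, or has no entry. With all 6 libraries, the genes in red and blue lie in the classes without a core or without an entry, but *Ctsd*, *Gla*, *Atp6v0d1* and *Glb1* of the classes with it pass without AclyM-KO replicate 2. The genes with the palindrome lie between -0.16 and 0.21.

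Of the 35 genes, 10 share exon bases with other genes in the GENCODE annotation. *Ctsb* shares 774 bases with *Fdft1* and *Ctsa* shares 495 bases with *Pltp*, each on the opposite strand, and *Ctsl* shares 1742 bases with an antisense gene. *Glb1* shares 165 bases with *Tmppe* on the same strand, and *Ctsd* shares 808 bases with a predicted gene on the same strand. The counting used the default settings of its tool, and the sources used here do not say which strand setting that is. The values of these genes are uncertain to the extent that reads on the shared bases may come from either gene. Of the 6 genes that passed, none had such an overlap.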

How the data were processed

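RNA of 3 control and 3 AclyM-KO libraries of unstimulated BMDMs was prepared with a strand-specific KAPA mRNA HyperPrep kit and sequenced on an Illumina instrument. The authors aligned the reads to mm10 with STAR 2.5.2b, kept alignments by mapping quality with SAMtools and summed tags per RefSeq transcript with HOMER2, and they deposited raw counts that were neither normalized nor pooled. The counting script ran at its defaults, and the strand setting that these imply and the RefSeq release are not given in the sources used here. Of 12 columns of values, 6 belong to these libraries, and the other 6 were not used.

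The table holds 35745 transcripts, of which 35440 were named from a RefSeq gene table and 188 from GENCODE M21. The transcript with the highest total represented each gene, which gave totals between 11120034 and 25814853 per library. Groups were compared with edgeR 4.0.16 in R 4.3.3 (TMM, filterByExpr, quasi-likelihood test, genotype as the single factor), with Benjamini-Hochberg adjustment over 11470 genes and a threshold of 0.05. The biological coefficient of variation was 8.91%. RPKM values were computed from these counts and transcript lengths. Of the 35 genes, 1 (*Ctsk*) had under 100 counts in some library.

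The 35 genes, the lists around them, the markers and the promoter letters were chosen with earlier results of these data known. The text names all 35 genes and, from each other list, up to 3 genes with the largest rise and 3 with the largest fall among those past the threshold without overlap, every V-ATPase gene past it, the direct paralogs, and *Acly* and *Lyz2*. Marker genes are named from the fixed lists. Alternatives were DESeq2 1.42.0, RLE factors, library totals alone, 2 other filters, limma-voom weighting samples by quality (limma 3.58.1), fits that leave out each library, fits with replicate numbers as a block, all transcripts, AclyM-KO replicate 2 thinned to 11386654 counts, a threshold of 0.01 and a minimal log2 fold change of 0.5. TMM factors from all other genes, and group values without AclyM-KO replicate 2, were added after seeing the data. On simulated counts with 200 changed genes, edgeR recovered 182 at a log2 change of 1 and 116 at 0.5 for this comparison (11389 and 11392 genes), with 7 and 4 false calls, and made 0 calls in data without a change (11379 genes), as did DESeq2 and limma-voom.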

Additional observations from a re-analysis of the deposited data

How the results depend on the processing

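Over 16 alternatives, the 35 genes gave 560 log2 fold changes, of which 514 kept their direction and their side of the threshold, 10 no longer passed, 22 newly passed and 14 changed sign. Sign changes were found in 6 genes that had not passed. *Lamp2* was 0.029 with library totals alone, and *Smpd1* was 0.027 with limma-voom. With 1 library left out, *Neu1* ranged from -0.022 to 0.10, *Smpd1* from -0.11 to 0.036, *Lamp1* from -0.011 to 0.048, *Lamp2* from -0.056 to 0.017, *Mcoln1* from -0.036 to 0.16 and *Tfe3* from -0.058 to 0.10.

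Of the 35 genes, 1 was higher and 5 lower. Library totals alone gave 2 higher, and limma-voom 6 higher and 8 lower. A threshold of 0.01 or a minimal log2 fold change of 0.5 each gave 2 lower. With 1 library left out, between 1 and 7 were higher and between 2 and 7 lower. In the other lists, 7 genes were higher and 17 lower. limma-voom gave 15 higher, the threshold of 0.01 gave 3 higher and 5 lower, and the minimal change gave 2 higher and 2 lower. With 1 library left out, between 3 and 17 were higher and between 4 and 20 lower. Over all genes, 768 were higher and 648 lower. limma-voom gave 1077 lower, the threshold of 0.01 gave 343 higher and 214 lower, and the minimal change gave 462 higher and 257 lower. With 1 library left out, between 363 and 1105 were higher and between 235 and 1031 lower. The stricter limits lower the counts by construction. Over all genes, leaving out AclyM-KO replicate 1 raised the counts to 872 higher and 770 lower. Leaving out AclyM-KO replicate 2 raised them to 1105 and 1031, and leaving out any other library lowered them. The cause of these and the other changes was not tested.

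Same-numbered libraries of the groups deviated together with correlations of 0.090, 0.11 and -0.047, and not every library correlated best with its own number. With 3 libraries a group, such small correlations cannot decide whether the numbers pair the libraries. With the replicate block, 1 of the 35 genes was higher and 6 lower, *Psap* being the one added, as it was with DESeq2 (6 lower) and with no filter on low counts (6 lower).

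The median log2 fold change of the 35 genes lay between -0.097 and 0.0028 under all alternatives, beside -0.041. Library totals alone moved it to -0.0058. With 3 libraries a group, a gene that did not pass may still differ by less than its interval allows. Depth differed, and with AclyM-KO replicate 2 thinned the counts were 1 higher and 5 lower. Thinning keeps the relative levels within a library, so why this library stood apart was not tested. The mice behind each library are not given in the labels.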
